A study of Rattus norvegicus with 12 samples.

Results

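The genes described here were 8 enzymes of fatty acid synthesis and desaturation in the testis of rat embryos at embryonic day 16: Scd, Scd2, Fasn, Acaca, Elovl5, Elovl6, Fads1 and Fads2. All probe sets of an Affymetrix rat expression array that the annotation assigns to 1 of these symbols were used. That gave 15 of the 31042 probe sets that are not Affymetrix controls: 4 for Scd2, 2 each for Fasn, Acaca, Elovl5 and Elovl6, and 1 each for Scd, Fads1 and Fads2. None of them carried a further symbol, and all 15 were among the 21729 probe sets bright enough to be tested. The annotation pairs a probe set with a gene but gives no position in the transcript, so the part of each mRNA that a probe set reads is not described here. Scd and Scd2 are closely related in sequence, and whether a probe set of one also binds the other was not tested.

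Total RNA was measured on 12 arrays, 2 in each of 6 groups, which were a control and a vinclozolin lineage in the F1, F2 and F3 generations. Founder females carrying the F1 embryos had been injected intraperitoneally on pregnancy days 8 to 14, with vinclozolin at 100 mg/kg/day or with sesame oil and DMSO alone. Vinclozolin, a fungicide, is an anti-androgen through its breakdown products. The F1 embryos were therefore exposed in the womb, while the F2 and F3 embryos came from later matings for which no further dosing is described. For the F2 and F3 vinclozolin groups the protocols say that the mated animals were of different control lines, and the lineage in the sample titles was followed. Each RNA was a pool of about 10 testes, and nothing in the labels tells if replicate pools came from separate litters, so a p-value measures the spread between pools. In pooled whole testis, fewer cells of a type and less RNA per cell cannot be told apart.

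Fatty acids are built in the cytosol from acetyl-CoA. Acetyl-CoA carboxylase (Acaca) makes malonyl-CoA, and fatty acid synthase (Fasn) joins malonyl units into palmitate. Elongases (Elovl5, Elovl6) lengthen the chains in the endoplasmic reticulum, stearoyl-CoA desaturases (Scd, Scd2) make monounsaturated chains, and the delta-5 and delta-6 desaturases (Fads1, Fads2) work with elongases to make long polyunsaturated chains, in which mature testis is rich. The transcription factors SREBP and LXR are known to control most of these genes.

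The promoters of Scd2 and Elovl5 are shown because each gene had a probe set with a large lineage difference, and that of Scd because it is the close relative and chromosomal neighbour of Scd2. RefSeq windows on the GRCr8 build, from 250 bases before to 50 bases after the start of the gene, matched 5 of the 8 genes (Scd, Scd2, Elovl5, Fads1 and Fads2). Fasn, Acaca and Elovl6 had no window in the table used. Each sequence is printed in the direction of transcription. The Scd2 window is chr1:253118127-253118426 on the plus strand, Elovl5 is chr8:87670914-87671213 on the plus strand, and Scd is chr1:253231682-253231981 on the minus strand. Capitals mark CACGTG (the E-box) and CCAAT or its reverse ATTGG (the NF-Y box).
Scd2: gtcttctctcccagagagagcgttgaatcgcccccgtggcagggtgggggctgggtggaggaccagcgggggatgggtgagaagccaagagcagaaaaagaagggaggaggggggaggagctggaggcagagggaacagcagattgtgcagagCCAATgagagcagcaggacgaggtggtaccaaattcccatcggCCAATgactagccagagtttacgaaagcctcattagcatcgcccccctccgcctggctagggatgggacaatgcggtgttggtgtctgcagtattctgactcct
Elovl5: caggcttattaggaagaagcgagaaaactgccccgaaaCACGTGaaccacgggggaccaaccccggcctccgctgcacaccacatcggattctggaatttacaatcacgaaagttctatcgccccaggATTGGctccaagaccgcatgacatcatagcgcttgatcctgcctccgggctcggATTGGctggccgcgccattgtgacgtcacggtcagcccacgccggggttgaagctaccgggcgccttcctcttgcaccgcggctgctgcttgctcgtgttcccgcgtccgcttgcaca
Scd: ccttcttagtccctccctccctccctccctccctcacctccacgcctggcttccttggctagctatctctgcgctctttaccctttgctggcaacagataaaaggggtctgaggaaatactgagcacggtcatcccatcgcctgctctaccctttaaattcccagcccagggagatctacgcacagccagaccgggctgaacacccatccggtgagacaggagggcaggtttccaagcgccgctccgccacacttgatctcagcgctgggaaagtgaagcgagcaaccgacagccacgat

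Both strands of the 5 windows were searched for 4 motifs, and no matches overlapped. CCAAT lay 97 and 54 bases before the start in Scd2, and as ATTGG 122 and 68 bases before it in Elovl5. It was in 3 of the 5 windows (Scd2, Elovl5, Fads1), against 37.5% of 33469 RefSeq windows of the same length. CACGTG was in Elovl5, 212 bases before the start, and in 6.42% of all windows. GGGCGG (the Sp1 box) was in Fads1 and Fads2 and in 33.1% of all windows. TCACCCCAC, a sterol regulatory element, was in 0 of the 5 windows and in 0.484% of all. A match describes the letters and is not evidence of binding.

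The lineages also differed in a measure of how intact the RNA was. The beta-actin ratio, which sets the 5' control probe set over the 3' one, was 0.423 to 0.471 on the 6 control arrays. The F1 vinclozolin arrays gave 0.171 ± 0.030, the F2 arrays 0.233 ± 0.020 and the F3 arrays 0.378 ± 0.025 (mean ± SD, n = 2 per group). For Gapdh this ratio was 0.959 to 1.02 on control arrays, and the vinclozolin groups averaged 0.684 (F1), 0.760 (F2) and 0.996 (F3). Replicates of a vinclozolin group also lay further apart (log2 SD over probe sets 0.177 to 0.244) than those of a control group (0.130 to 0.159). The part of the actin ratio in the results below was not tested apart from 1 fit that held it as a covariate, in which no fatty acid gene probe set was called in any comparison. That fit called 0 of all tested probe sets in F1, in F2 and over the mean.

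Differences are given as vinclozolin minus control on the log2(signal + 16) scale, with the standard error (SE) of a limma fit over all 12 arrays, 2 per group, and a Benjamini-Hochberg adjusted p over all tested probe sets. The added 16 shrinks the differences of dim probe sets. A probe set was called changed at an adjusted p under 0.05. In F1, 6 of the 15 fell (2 of Scd2, 2 of Elovl6 and 1 each of Acaca and Elovl5), against 13.7% of all tested probe sets, and 1 rose (Elovl5), against 9.41%. In F2, 5 fell, against 9.65%, and 1 rose, against 4.7%. The mean of the 3 generations had 7 lower, against 19.2%, and 1 higher, against 14.1%, so changed probe sets were common on these arrays at large. The median difference of the 15 was −0.29 in F1, −0.14 in F2, −0.04 in F3 and −0.21 over the mean, where that of all tested probe sets was −0.01 in each.

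In F3 none of the 15 was called, lower (2.06% of all) or higher (1.05% of all), and 5 of 15 had an unadjusted p under 0.05, against 18.3% of all. With limma's array weights 3 were called in F3: Fasn 1367707_at, Elovl5 1388348_at and Scd2 1388253_at. With the 4 F3 arrays fitted alone 3 were called as well, with Scd2 1386889_at in place of Scd2 1388253_at. Among the 3 control groups no member was called, with 0 at an unadjusted p under 0.05, and of all tested probe sets 0% were called and 2.38% had such a p.

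**Figure D1:**
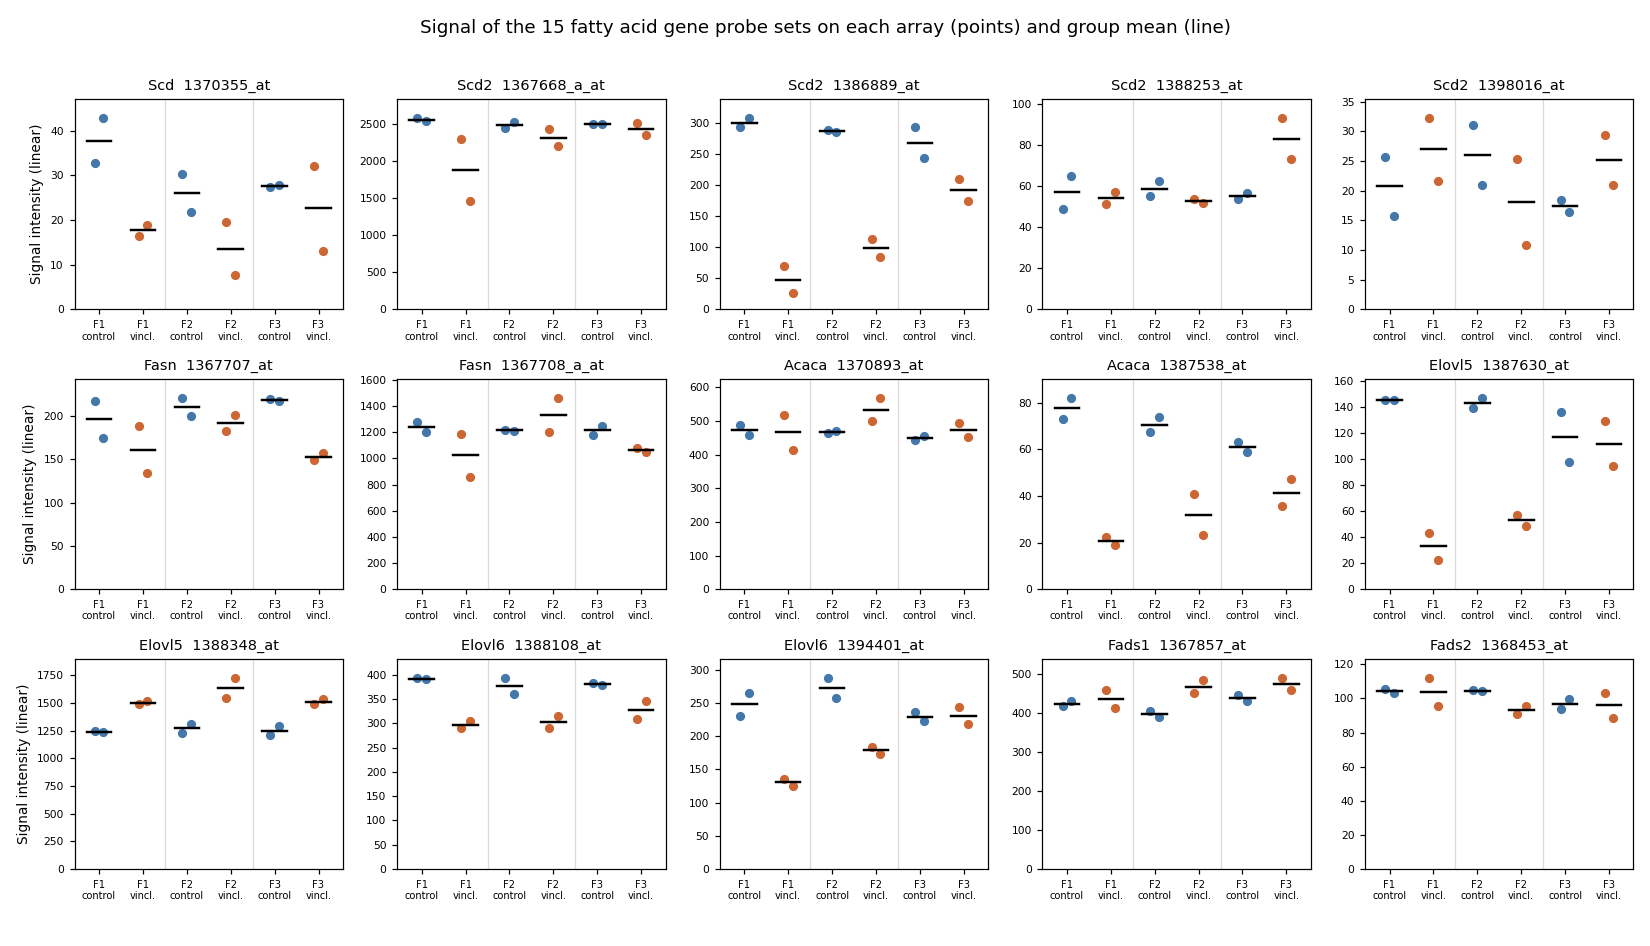
Signal intensity (linear, vertical axis from 0, own scale in each panel) of the 15 probe sets on each of the 12 arrays, by generation and lineage (blue, control; orange, vinclozolin; vincl., vinclozolin). Points are arrays and lines are means of 2. Scd2 1386889_at, Elovl5 1387630_at and Acaca 1387538_at are lowest in F1 vinclozolin, while Elovl5 1388348_at is above 1486 on every vinclozolin array and at most 1313 on every control array.

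Scd2, the stearoyl-CoA desaturase that makes oleate and palmitoleate in many tissues outside the liver, had 4 probe sets that did not move alike. Scd2 1386889_at gave the largest change of the 15. Its signal was 293 and 308 in F1 control, 288 and 285 in F2 control, and 293 and 243 in F3 control. It was 69.7 and 26.1 in F1 vinclozolin, 113 and 83.8 in F2 vinclozolin, and 210.2 and 175 in F3 vinclozolin. All 6 vinclozolin arrays were below all 6 control arrays, and the vinclozolin groups ran in the order F1, F2, F3 from low to high with no overlap. The F3 control arrays spanned the F2 control values, and the F1 control arrays overlapped those of F3 but lay above those of F2.

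The fitted difference of Scd2 1386889_at was −2.40 ± 0.23 in F1 (5.27-fold lower, adjusted p = 8.55e-06) and −1.42 ± 0.23 in F2 (2.67-fold lower, adjusted p = 0.00108). In F3 it was −0.45 ± 0.23 (adjusted p = 0.331), and this F3 value was called without either F1 vinclozolin array (adjusted p = 0.042 without replicate 1 and 0.0405 without replicate 2). Over the mean it fell by 1.42 ± 0.13 (adjusted p = 2.71e-06). The beta-actin ratio of the same arrays ran in the same order. With that ratio as a covariate the F1 difference was 0.53 with an SE of 0.93.

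Scd2 1367668_a_at had a signal of 2449 to 2578 on the 6 control arrays. Its vinclozolin values were 2296 and 1466 in F1, 2428 and 2199.8 in F2, and 2516 and 2349 in F3. In F1 both arrays were below all controls, and the lineages overlapped in F3. It fell by 0.47 ± 0.14 in F1 (adjusted p = 0.0226), a call that was lost without F1 vinclozolin replicate 2 (−0.15, adjusted p = 0.164) and without either F1 control array (adjusted p = 0.11 and 0.096), with no filter (adjusted p = 0.0518) and with the 4 F1 arrays alone (adjusted p = 0.14). The differences were −0.11 in F2 and −0.04 in F3, each with an SE of 0.14. The mean difference of −0.21 ± 0.08 was not called (adjusted p = 0.0598), but was without F1 vinclozolin replicate 1 (−0.31, adjusted p = 1.17e-05) or replicate 2 (−0.10, adjusted p = 0.0453), after quantile normalization (−0.30, adjusted p = 0.0187) and with array weights (adjusted p = 0.0105).

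The other 2 Scd2 probe sets were not called in any generation. Scd2 1388253_at was 48.9 to 64.9 on control arrays, 51.1 to 57 in F1 and F2 vinclozolin, and 92.9 and 73.1 in F3 vinclozolin. Both F3 vinclozolin arrays were above every other array, yet the F3 difference of 0.47 ± 0.16 had an adjusted p of 0.117. Scd2 1398016_at lay between 10.9 and 32.2 on all arrays, and its differences were 0.23, −0.32 and 0.29 in F1, F2 and F3, each with an SE of 0.24.

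Scd, the desaturase that predominates in liver and fat, was dim. Its control values were 32.8 and 42.8 in F1, 30.3 and 21.7 in F2, and 27.4 and 27.8 in F3. The vinclozolin values were 16.5 and 18.9 in F1, 19.5 and 7.7 in F2, and 32.1 and 13.1 in F3. The lineages did not overlap within F1 or within F2, and did in F3. The differences of −0.67, −0.53 and −0.22 (SE 0.25 each) were not called in a single generation (adjusted p = 0.0662, 0.18 and 0.701), while the mean fell by 0.47 ± 0.14 (adjusted p = 0.02). The F1 difference was called without F2 vinclozolin replicate 2, F3 vinclozolin replicate 1 or F3 vinclozolin replicate 2 (adjusted p = 0.0496, 0.0436 and 0.0415) and with a pseudocount of 64 (−0.32, adjusted p = 0.0449). The call of the mean was lost without F1 control replicate 2, F2 control replicate 1, F2 vinclozolin replicate 2 or F3 vinclozolin replicate 2 (−0.43, −0.42, −0.38 and −0.35). Without the 4 F1 arrays the mean, then of F2 and F3 only, was not called either (−0.37, adjusted p = 0.162).

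Acaca, the enzyme that makes malonyl-CoA and commits acetyl-CoA to synthesis, had a probe set that fell and one that was not called. Acaca 1387538_at was 73.2 and 82 in F1 control, 67.5 and 73.7 in F2 control, and 63 and 58.9 in F3 control. It was 22.2 and 18.9 in F1 vinclozolin, 40.9 and 23.1 in F2 vinclozolin, and 35.6 and 47.2 in F3 vinclozolin. All 6 vinclozolin arrays were below all 6 control arrays. It fell by 1.36 ± 0.18 in F1 (adjusted p = 0.000125) and by 0.88 ± 0.18 in F2 (adjusted p = 0.0055), and the F3 difference was −0.43 ± 0.18 (adjusted p = 0.224). The F2 call was lost without F2 control replicate 2 (−0.82, adjusted p = 0.0574) or F2 vinclozolin replicate 2 (−0.61, adjusted p = 0.0815).

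The other Acaca probe set, 1370893_at, was 444 to 488 on control arrays and 414 to 568 on vinclozolin arrays, and the lineages overlapped. Its differences were −0.03, 0.18 and 0.07 in F1, F2 and F3 (SE 0.11 each), with a 95% interval of the mean from −0.06 to 0.21. Over the same mean Acaca 1387538_at fell by 0.89 ± 0.11 (adjusted p = 2e-05).

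Fasn, the multifunctional synthase that makes palmitate, changed less. Fasn 1367707_at was 174.9 to 220.4 on control arrays; its vinclozolin values were 188 and 134 in F1, 183 and 200.7 in F2, and 148.5 and 157 in F3. The lineages were apart in F3 and overlapped in F1 and F2. No generation was called (−0.27, −0.12 and −0.47, SE 0.14 each; adjusted p = 0.194, 0.621 and 0.085), and the mean fell by 0.29 ± 0.08 (adjusted p = 0.0137). The mean call was lost without F1 control replicate 1 (−0.24, adjusted p = 0.0559), and without either F1 vinclozolin array the F3 difference was called (adjusted p = 0.0126 and 0.0122). Without F1 vinclozolin replicate 1 the F1 difference was called too (−0.49, adjusted p = 0.00964).

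Fasn 1367708_a_at was 1182 to 1276 on control arrays and 857 to 1461 on vinclozolin arrays. F1 vinclozolin replicate 2 and both F3 vinclozolin arrays were below the control range and F2 vinclozolin replicate 2 was above it. The differences were −0.29, 0.12 and −0.19 (SE 0.12 each), and none was called, nor was the mean of −0.12 ± 0.07. Without F1 vinclozolin replicate 1, F1 was called (−0.52, adjusted p = 0.000799) and so was the mean (−0.20, adjusted p = 0.00506), and quantile normalization also gave a call in F1 (−0.41, adjusted p = 0.0388).

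Elovl5, the elongase of polyunsaturated chains, gave called changes in both directions. Elovl5 1387630_at was 145 and 146 in F1 control, 139.5 and 147 in F2 control, and 136 and 98 in F3 control. It was 43.2 and 22.8 in F1 vinclozolin, 56.9 and 48.8 in F2 vinclozolin, and 129 and 94.6 in F3 vinclozolin. The F1 and F2 vinclozolin arrays were below all controls, and the F3 lineages overlapped. It fell by 1.75 ± 0.19 in F1 (3.37-fold lower, adjusted p = 2.69e-05) and by 1.21 ± 0.19 in F2 (2.31-fold lower, adjusted p = 0.00096). In F3 the difference was −0.06 ± 0.19, with a 95% interval from −0.47 to 0.36. With the actin ratio as a covariate the differences were 0.73 ± 0.77 in F1 and 0.63 ± 0.58 in F2, neither called.

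Elovl5 1388348_at went the other way. Its control values were 1247 and 1237 in F1, 1227 and 1313 in F2, and 1211 and 1288 in F3. Its vinclozolin values were 1486 and 1515 in F1, 1546 and 1725 in F2, and 1489 and 1537 in F3. All 6 vinclozolin arrays were above all 6 control arrays. It rose by 0.27 ± 0.08 in F1 (adjusted p = 0.0252), by 0.36 ± 0.08 in F2 (adjusted p = 0.00853) and by 0.30 ± 0.05 over the mean (adjusted p = 0.000185). The F3 difference of 0.27 ± 0.08 was not called (adjusted p = 0.0812), but was without F1 vinclozolin replicate 1 or 2 (adjusted p = 0.0172 in each case).

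The single-generation calls of Elovl5 1388348_at were less stable. The F1 call was lost without F1 control replicate 1 or 2 (0.28 and 0.26, adjusted p = 0.116 and 0.137), and also after quantile normalization (0.16, adjusted p = 0.14), with array weights (adjusted p = 0.0681) and with the 4 F1 arrays alone (adjusted p = 0.154). The F2 call was lost without F2 control replicate 1 (0.31) or F2 vinclozolin replicate 2 (0.28), with adjusted p of 0.103 and 0.105.

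Elovl6, which lengthens saturated and monounsaturated chains from palmitate, fell by both probe sets. Elovl6 1394401_at was 231 and 265 in F1 control, 287.5 and 258 in F2 control, and 236 and 223 in F3 control. It was 136 and 125 in F1 vinclozolin, 184 and 173 in F2 vinclozolin, and 243 and 219 in F3 vinclozolin. The lineages were apart in F1 and F2 and overlapped in F3. It fell by 0.85 ± 0.11 in F1 (adjusted p = 0.000102) and by 0.57 ± 0.11 in F2 (adjusted p = 0.00372, lost without F2 control replicate 1 at −0.49 and 0.0604), and the F3 difference was 0.01 ± 0.11.

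Elovl6 1388108_at was 361 to 393 on control arrays. Its vinclozolin values were 290.3 and 304 in F1, 289 and 315 in F2, and 309 and 347 in F3, all below the lowest control array. It fell by 0.38 ± 0.10 in F1 (adjusted p = 0.0105), by 0.30 ± 0.10 in F2 (adjusted p = 0.0477) and by 0.30 ± 0.06 over the mean (adjusted p = 0.000858), and in F3 the difference was −0.21 ± 0.10 (adjusted p = 0.266). The F2 call lay next to the threshold and was lost without any 1 of the 6 control, 2 F2 vinclozolin or 2 F3 vinclozolin arrays (−0.36 to −0.25, adjusted p = 0.0517 to 0.287). It was lost as well with no filter (adjusted p = 0.0533) or the 4 F2 arrays alone (adjusted p = 0.0545). The F1 call was lost without F1 control replicate 1 or 2 (adjusted p = 0.0725 and 0.0709) and with the 4 F1 arrays alone (adjusted p = 0.0856).

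The polyunsaturated desaturases showed no called change in a single generation. Fads1, the delta-5 desaturase, was 391.5 to 448 on control arrays and 414 to 490.3 on vinclozolin arrays. Its differences were 0.04, 0.22 and 0.10 (SE 0.09 each) and 0.12 ± 0.05 over the mean (adjusted p = 0.0931). Without F1 vinclozolin replicate 1 or 2 the F2 difference was called (adjusted p = 0.0393 and 0.0389), and without replicate 2 the mean was as well (0.15, adjusted p = 0.0213). Fads2, the delta-6 desaturase, was 93.5 to 106 on control arrays and 88.7 to 112 on vinclozolin arrays. Its differences were −0.01, −0.14 and −0.01 (SE 0.13 each), and the 95% interval of the mean ran from −0.21 to 0.10.

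**Figure D2:**
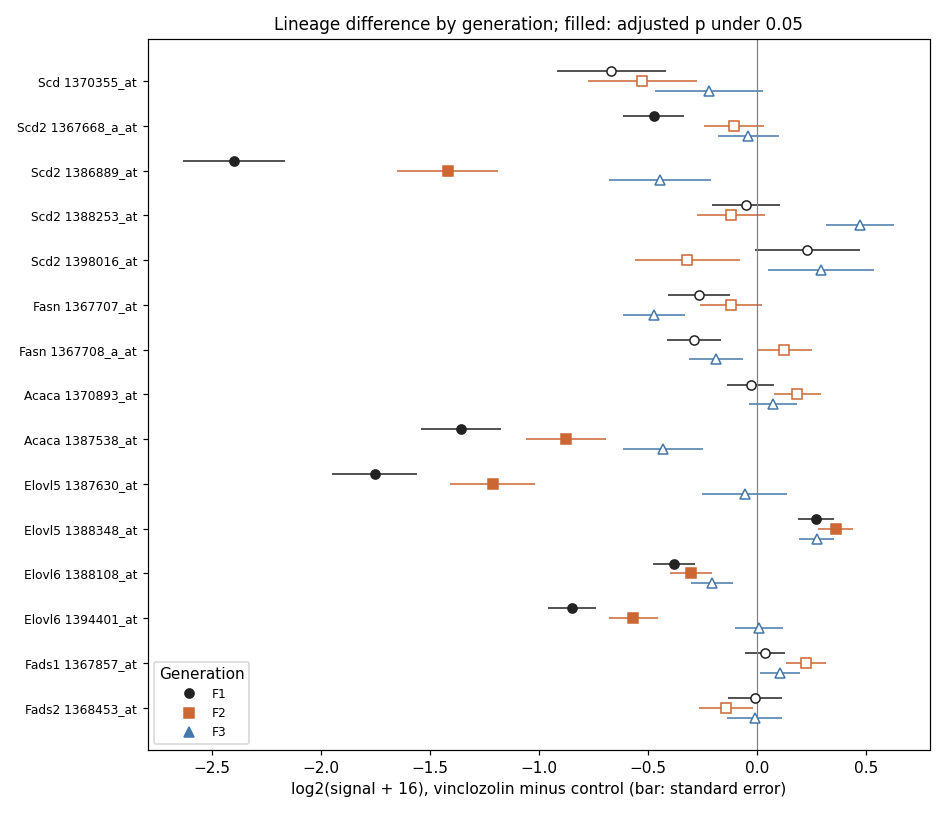
Vinclozolin minus control difference on the log2(signal + 16) scale (horizontal axis) for the 15 probe sets, by generation, with the standard error as a bar; filled symbols have an adjusted p under 0.05. Scd2 1386889_at, Acaca 1387538_at and Elovl5 1387630_at lie furthest left in F1 (−2.40, −1.36 and −1.75), and no F3 symbol is filled.

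Groups that did not overlap at all were 3 lower probe sets among the 15 (Scd2 1386889_at, Acaca 1387538_at, Elovl6 1388108_at), against 7.73% of all tested probe sets. The 1 higher probe set (Elovl5 1388348_at) stands against 5.52%. With each array centred on its median, all tested probe sets shifted upward by 0.118 in F1 and 0.116 in F2. The split of the fatty acid gene calls then moved from 6 lower and 1 higher to 4 and 1 in F1, from 5 and 1 to 4 and 2 in F2, and from 7 and 1 to 6 and 3 over the mean. Over all tested probe sets the lower share of the calls moved from 59.3% to 37% in F1 and from 67.3% to 36.3% in F2. In F3 it moved from 66.3% to 50.3% and over the mean from 57.6% to 33.4%. No called fatty acid gene probe set changed direction under median centring or quantile normalization, but the F1 calls of Scd2 1367668_a_at (−0.36) and Elovl6 1388108_at (−0.26), the F2 call of Elovl6 1388108_at (−0.19) and the mean call of Fasn 1367707_at (−0.19) were lost under median centring. Median centring added calls of Fads1 in F2 (0.34) and over the mean (0.22) and of Acaca 1370893_at over the mean (0.17).

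Probe sets of the same gene were then compared directly, by fitting the log2 difference between them on each array. The 5 genes with several probe sets gave 10 pairs, of which the 6 of Scd2 share probe sets. In F1, 7 of 10 pairs had changed, against 37.3% of the 6160 pairs of 3269 genes, and in F2 5 of 10, against 29.8%. Over the mean 5 of 10 had changed, against 48.8%, which is close to the share of all pairs. In F3 none was called, against 2.29%, with 3 of 10 at an unadjusted p under 0.05 and 2 called with array weights or a pseudocount of 64, those of Scd2 1386889_at with 1388253_at and with 1398016_at. The first of these was also called in F3 without either F1 vinclozolin array.

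For Scd2, 1367668_a_at stood 2.98 to 3.28 log2 units above 1386889_at on the 6 control arrays. On the vinclozolin arrays the gap was 3.48 to 5.14, so the lineages did not overlap. The gap widened by 1.92 ± 0.18 in F1 (adjusted p = 5.05e-05) and by 1.31 ± 0.18 in F2 (adjusted p = 0.000753), and by 1.21 ± 0.11 over the mean (adjusted p = 9.05e-06). In F3 it was wider by 0.40 ± 0.18 (adjusted p = 0.267). An exact 2-sided permutation test of the mean, with lineages permuted within generations, gave p = 0.00926, the smallest it can give (0.0231 adjusted over the 10 pairs).

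Scd2 1386889_at also separated from the other 2 Scd2 probe sets. Its difference from 1388253_at changed by −2.35 ± 0.30 in F1, −1.30 ± 0.30 in F2 and −1.52 ± 0.17 over the mean (adjusted p = 0.000168, 0.00746 and 3.67e-05). Its difference from 1398016_at changed by −2.63 ± 0.24, −1.10 ± 0.24 and −1.49 ± 0.14 in the same order (adjusted p = 3.97e-05, 0.00596 and 1.13e-05). The F2 change against 1388253_at was lost without F2 control replicate 1 (−1.22, adjusted p = 0.0517) or F2 vinclozolin replicate 2 (−1.13, adjusted p = 0.0628). That against 1398016_at was lost in F2 without F2 control replicate 2 (−0.93, adjusted p = 0.0543) or with a pseudocount of 1 (−0.97, adjusted p = 0.0868). The pairs that leave out 1386889_at gave 1 call, in F1 between 1367668_a_at and 1398016_at (−0.70 ± 0.23, adjusted p = 0.0333), which was lost without F1 control replicate 2 (−0.52, adjusted p = 0.214) or F1 vinclozolin replicate 2 (−0.56, adjusted p = 0.159), and with a pseudocount of 1 (adjusted p = 0.150) or array weights (adjusted p = 0.117). With a pseudocount of 64, 1367668_a_at against 1388253_at was called in F1 (−0.43) and over the mean (−0.27) and against 1398016_at over the mean (−0.23), and the first was called in both without F1 vinclozolin replicate 1 (−0.81 and −0.43).

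For Elovl5, 1387630_at minus 1388348_at ran from −3.52 to −2.95 on control arrays and from −5.30 to −3.38 on vinclozolin arrays. The overlap came from F3. The change was −2.02 ± 0.25 in F1 (adjusted p = 0.000156), −1.57 ± 0.25 in F2 (adjusted p = 0.00129) and −0.33 ± 0.25 in F3 (adjusted p = 0.523). The mean changed by −1.31 ± 0.14 (adjusted p = 3.17e-05; exact permutation p = 0.0185, 0.037 adjusted over the 10 pairs).

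For Acaca, 1370893_at minus 1387538_at was 2.28 to 2.65 on control arrays and 2.89 to 3.90 on vinclozolin arrays, without overlap. The gap widened by 1.33 ± 0.23 in F1 (adjusted p = 0.00118), by 1.06 ± 0.23 in F2 (adjusted p = 0.00636) and by 0.96 ± 0.13 over the mean (adjusted p = 0.000155; exact permutation p = 0.00926). The F2 change was lost without F2 vinclozolin replicate 2 (0.70, adjusted p = 0.0574).

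Elovl6 and Fasn showed weaker contrasts. The Elovl6 gap (1388108_at minus 1394401_at) was 0.43 to 0.73 on control arrays and 0.32 to 1.18 on vinclozolin arrays. It widened by 0.47 ± 0.16 in F1 (adjusted p = 0.0411), and not by a called amount in F2 (0.26), F3 (−0.22) or over the mean (0.17 ± 0.09, adjusted p = 0.156). The F1 call was lost without either F1 control array (0.57 and 0.37), without F1 vinclozolin replicate 2 (0.39), without any 1 of the F2 and F3 control arrays, or with array weights (adjusted p = 0.0575 to 0.225 over these). The Fasn gap changed by 0.02, −0.25 and −0.28 in F1, F2 and F3 (SE 0.16 each), none called.

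**Figure D3:**
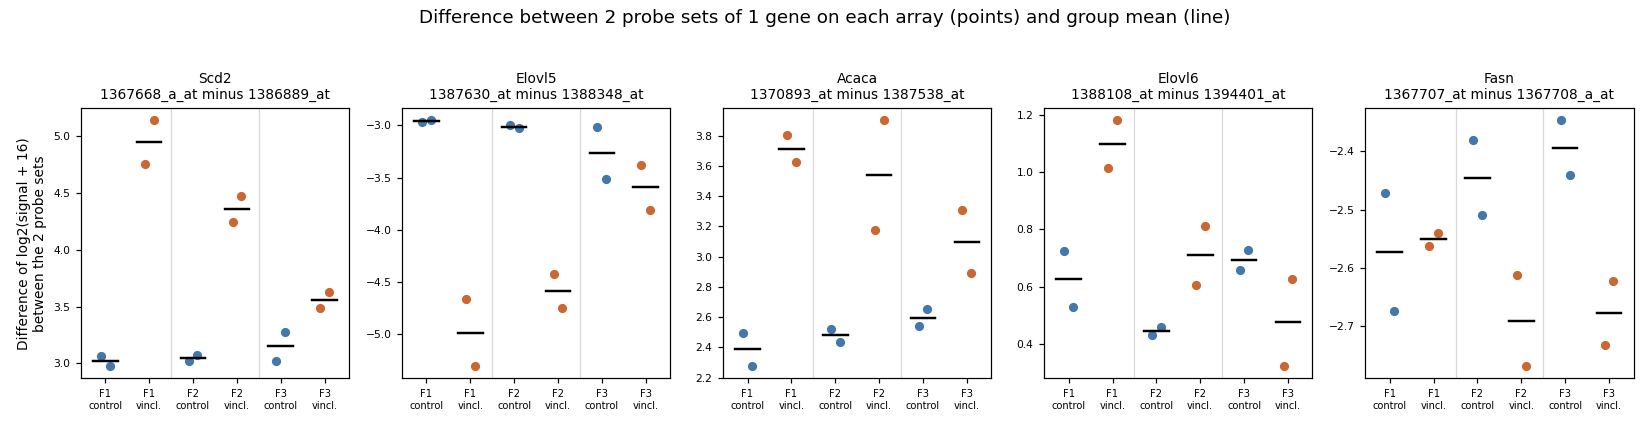
Difference of log2(signal + 16) between 2 probe sets of 1 gene (vertical axis, own scale in each panel, not from 0) on each array; points are arrays, lines are means of 2, blue is control and orange vinclozolin. In Scd2 and Acaca every vinclozolin array lies above every control array (3.48 to 5.14 against 2.98 to 3.28 in Scd2), and in Elovl5 the F1 and F2 vinclozolin arrays lie below all controls.

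Whether the lineage difference itself depended on generation was asked with an F test over the 3 generations. It was called for 3 of the 15 probe sets, against 2.6% of all tested probe sets: Scd2 1386889_at (adjusted p = 0.0142), Elovl5 1387630_at (adjusted p = 0.0108) and Elovl6 1394401_at (adjusted p = 0.0199). In each the difference was most negative in F1 and nearest to 0 in F3. For Acaca 1387538_at, with −1.36, −0.88 and −0.43, the dependence was not called (adjusted p = 0.144). These tests rested on some arrays more than others. Scd2 was lost without F1 control replicate 1 or 2, F3 control replicate 2 or F3 vinclozolin replicate 1 (adjusted p = 0.0552, 0.0625, 0.101 and 0.0828). Elovl5 was lost without F3 control replicate 2 or F3 vinclozolin replicate 1 (0.101 and 0.0802), and Elovl6 without F1 control replicate 2, F3 control replicate 1 or 2, or F3 vinclozolin replicate 1 (0.0965, 0.0876, 0.161 and 0.121). Without F1 vinclozolin replicate 1, Fasn 1367708_a_at (0.00882) and Scd2 1367668_a_at (0.000391) were called in addition.

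The actin ratio of the vinclozolin arrays was also lowest in F1 and highest in F3. The vinclozolin values of Elovl5 1388348_at (1486 to 1725) lay above the controls in each generation, and its dependence on generation had an adjusted p of 0.848. The ratio was lower on all vinclozolin arrays (0.149 to 0.395) than on all control arrays (0.423 to 0.471). With the ratio as a covariate its difference was 0.08 ± 0.40 in F1, 0.22 ± 0.30 in F2 and 0.17 ± 0.27 over the mean, none called. Apart from that fit, the part of the actin ratio in these patterns was not tested.

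**Figure D4:**
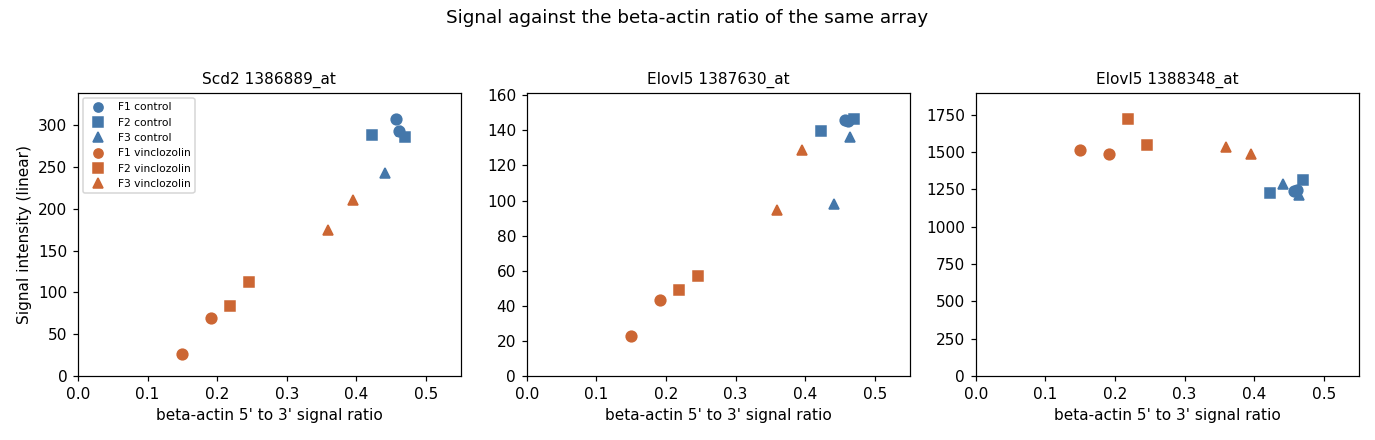
Signal intensity (linear, from 0) of 3 probe sets against the beta-actin 5' to 3' signal ratio of the same array; colour is lineage (blue control, orange vinclozolin) and shape is generation. Scd2 1386889_at and Elovl5 1387630_at are lowest where the ratio is lowest (0.149 to 0.246, F1 and F2 vinclozolin). Elovl5 1388348_at is higher on all vinclozolin arrays, F3 included. The ratio of every vinclozolin array (0.149 to 0.395) is below that of every control array (0.423 to 0.471).

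Probe sets of other genes that ran most like each called member were listed by Pearson correlation over the 12 arrays, which share the same lineage and generation groups, so r is given as a description. For Scd2 1386889_at they were Pdcd4 (1387521_at), Wac (1397824_at) and Caprin1 (1395412_at), with r = 0.995, 0.995 and 0.994. For Elovl5 1387630_at they were Tle4, Septin2 and Rab5b, with r = 0.993, 0.993 and 0.992. For Acaca 1387538_at the highest was Cpt1a 1367836_at (0.980), the carnitine palmitoyltransferase that admits fatty acids to mitochondria, followed by Nom1 and Dnal1 (0.977 each). Elovl5 1388348_at had Rpl18, Stn1 and Cdca7l (0.966, 0.962 and 0.959). Elovl6 1394401_at had Gpatch2, Cul4b and Zfp655 (0.980, 0.979 and 0.978), and Elovl6 1388108_at had Rab1b, Adgra3 and Rbbp6 (0.963, 0.957 and 0.949). Fasn 1367707_at had Dcaf15, Mtcl1 and Top2a (0.955, 0.948 and 0.944), and Scd had Fry, Haus5 and Ambra1 (0.935, 0.907 and 0.897).

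Enzymes around the 8 genes were read from 6 lists. Those that supply acetyl-CoA, malonyl-CoA and NADPH had 8 tested probe sets. Of these 2 fell and 1 rose in F1, where 13.7% of all tested probe sets fell and 9.41% rose, 0 fell and 2 rose in F2, where 9.65% fell and 4.7% rose, and none was called in F3. Malic enzyme (Me1), a source of NADPH, fell by 0.85 ± 0.12 in F1 by probe set 1370067_at (adjusted p = 0.000129), whereas 1370870_at rose by 0.39 ± 0.11 in F2 (adjusted p = 0.0309). The mitochondrial citrate carrier Slc25a1 fell by 0.39 ± 0.11 in F1, and cytosolic isocitrate dehydrogenase Idh1 rose by 0.35 ± 0.06 over the mean. Against the same shares, of 8 tested probe sets of other elongation enzymes 2 fell and 2 rose in F1 and 1 fell and 1 rose in F2. The ketoacyl reductase Hsd17b12 rose by 0.61 ± 0.10 in F1 and 0.42 ± 0.10 in F2. The dehydratase Hacd3 again split, as 1383587_at fell by 0.96 ± 0.14 and 1373469_at rose by 0.39 ± 0.09 in F1, and Hacd2 fell by 0.32 ± 0.10 in F1.

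Of 15 tested probe sets of genes that control lipogenic transcription, 5 fell and 0 rose in F1 (13.7% and 9.41% of all tested probe sets), 5 fell and 0 rose over the mean (19.2% and 14.1%), and none was called in F2 or F3. Scap, the escort of SREBP, fell by 1.11 ± 0.20 in F1 (1384464_at) and its other probe set by 0.55 (1389567_at). Mid1ip1, an activator of acetyl-CoA carboxylase, fell by 0.86 ± 0.15, the LXR receptor Nr1h2 by 0.64 ± 0.12 and Srebf1 1371104_at by 0.50 ± 0.17 in F1. The other Srebf1 probe set, 1388426_at, was not called (−0.21), nor was Srebf2 1371979_at, with 0.30 in F1 and 0.32 in F2 (adjusted p = 0.107 and 0.113). The list's median in F1 was −0.20, against −0.01 for all tested probe sets. Of 9 tested probe sets of other desaturases and their electron transport, none was called in a generation, and Cyb5r4, a cytochrome b5 reductase, rose over the mean (0.21 ± 0.07).

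Downstream, 25 tested probe sets of acyl-CoA synthetases and glycerolipid synthesis gave 4 lower and 2 higher in F1, 2 and 2 in F2, and 1 lower in F3, where all tested probe sets gave 13.7% and 9.41%, 9.65% and 4.7%, and 2.06% lower. Agpat1 1392763_at, an acyltransferase that makes phosphatidic acid, fell in each generation, by 0.99, 0.85 and 0.92 (SE 0.17 each; adjusted p = 0.000895, 0.0047 and 0.011), while Agpat1 1371748_at was not called (−0.31, −0.03 and −0.44). Gpam, which makes lysophosphatidic acid, fell by 0.66 ± 0.18 in F1 and 0.85 ± 0.18 in F2. A probe set of the phosphatidate phosphatase Lpin2 rose by 0.54 ± 0.12 in F1 and 0.46 ± 0.12 in F2. Agpat5 1395940_at fell over the mean by 0.42 ± 0.14 (adjusted p = 0.0327). Lpin2 and Agpat5 each had another tested probe set, whose values are not given here. Against the same shares, of 19 tested probe sets of mitochondrial beta-oxidation 1 fell and 4 rose in F1 and in F2, and 1 rose in F3 (1.05% of all). Cpt1a 1367836_at fell by 1.38 ± 0.15 in F1 and 0.84 ± 0.15 in F2, and Cpt1a 1386946_at rose by 0.42 in F2. The electron carrier Etfb rose by 0.69 ± 0.12 in F1, Acads, a short-chain dehydrogenase, by 0.50 ± 0.13, and Hadhb, part of the trifunctional protein, by 0.32 ± 0.06 over the mean.

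**Figure D5:**
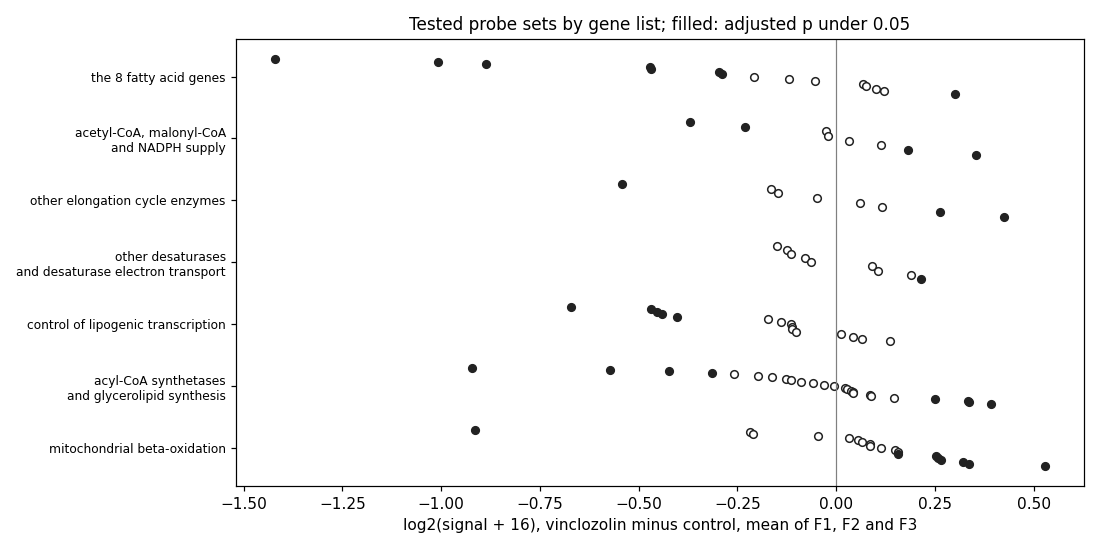
Vinclozolin minus control difference on the log2(signal + 16) scale, as the mean of F1, F2 and F3 (horizontal axis), for every tested probe set of the 8 fatty acid genes and of 6 neighbouring gene lists; filled points have an adjusted p under 0.05. The 8 genes span −1.42 to 0.30. All 5 called points of the lipogenic control list (15 tested) are negative. Of the 8 called points of beta-oxidation (19 tested), 7 are positive. Of all tested probe sets 19.2% were called lower and 14.1% higher.

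Markers of the cells that a testis sample could hold were read as summed signals per array, 1 probe set per gene, and their part in the results was not tested. The Sertoli list (6 of 8 genes with a probe set) summed to 5109 to 5452 on control and 4484 to 5684 on vinclozolin arrays, with Amh at 2397 to 3418. Its probe sets did not move alike. Wt1 1369695_at was 139.4 to 188.4 on control and 47.6 to 127.6 on vinclozolin arrays, and Gata4 1370293_at 98.1 to 135.7 and 40.3 to 84.2. Of all tested probe sets 7.73% were lower without overlap in this way. The brighter Wt1 and Gata4 probe sets overlapped between lineages, and Ptgds reached 63.4 on control and 258.3 on vinclozolin arrays. The Leydig list (7 of 7) summed to 11525 to 12201 on control and 12573 to 14947 on vinclozolin arrays. Of 6 germ cell markers only Kit, which other cells of the testis also express, had a probe set. It was 61.9 to 80.1 on control arrays and 2.5 to 61.4 on vinclozolin arrays, with group means of 11.4 in F1, 29.8 in F2 and 48.0 in F3 vinclozolin, and it was called lower in F1, F2 and over the mean but not in F3. Adipocytes, rich in these enzymes, left little trace: 0 of 6 marker genes were bright enough to be tested, and the highest value of any of their probe sets, Plin1 included, was 31.2. Adrenal markers were as dim, with at most 17.5, and liver markers summed to 47.7 to 73.9 on control and 37.8 to 136 on vinclozolin arrays. The Schwann cell and myelin list (3 of 5), which marks another lipid-making cell, summed to 1142 to 1215 and 1270 to 1529, with Sox10 at most 27.2. The erythroid list (3 of 5) was 4810 to 5462 and 6056 to 8133, interstitium and stroma (5 of 5) 7721 to 8254 and 6792 to 7334, striated muscle (4 of 4) 69.6 to 89 and 44.4 to 59, and macrophages (4 of 4) 149 to 189.7 and 115 to 169. Erythroid, Leydig and Schwann cell sums were thus higher, and stroma and muscle sums and Kit lower, on all vinclozolin arrays than on all control arrays, but members and probe sets of these lists differed. The erythroid sum was mostly Hbb 1367553_x_at (4429.5 to 4952.5 on control and 5525.5 to 7345.5 on vinclozolin arrays). Muscle markers were dim, with no value above 32.5 and 2 of 4 genes bright enough to be tested. The Schwann sum follows Pmp22 1370247_a_at (1059 to 1120 on control and 1209.5 to 1458 on vinclozolin arrays), while Pmp22 1370504_a_at was 317 to 376 and 139.5 to 316, and Mbp 1383479_at 63.9 to 82.1 and 37.2 to 64.4. Another Mbp probe set, 1368810_a_at, was 10.2 to 22.8 and 20 to 279.5. In the stroma list 4 of 5 genes were called lower over the mean, against 19.2% of all tested probe sets. Pdgfra was higher (1141 to 1241 on control and 1293 to 1733 on vinclozolin arrays). Of 7 Leydig genes 5 were called higher over the mean, against 14.1% of all tested probe sets. In F1, 1 was lower and 2 were higher, against 13.7% and 9.41%. Other probe sets of 2 of these genes reached lower on vinclozolin arrays. Star 1387174_a_at was 413 to 501 on control and 267.8 to 501.9 on vinclozolin arrays, and Lhcgr 1369033_at was 33.9 to 65.8 and 10.2 to 44.1.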

How the data were processed

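The deposited values are linear signal intensity per probe set on 12 arrays, from 0 to 9534.9, with 33 values at 0. The 2% trimmed mean of the intensity lies between 125.032 and 125.036 on every array, as the deposited values show, so arrays had been scaled to a common level before deposit. Which software summarised the probes is not given in the sources used here. Arrays carry no read depth, so their number limits the precision. Symbols came from the array annotation (20837 probe sets with 1 symbol, 425 with several, 9780 with none).

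Intensity was transformed as log2(value + 16). The 57 Affymetrix controls were left out, as were the dimmest 30% of the rest by mean log2 value (9313 probe sets), and 21729 were tested with 6 group means in limma 3.58.1 (lmFit, eBayes with trend) in R 4.3.3, with 6 residual and 8.97 prior degrees of freedom and Benjamini-Hochberg adjustment over all of them. All 6 groups share 1 estimate of the spread, because 2 arrays against 2 cannot give an exact permutation p below 0.333. Pairs of probe sets of 1 gene were fitted in the same way as log2 differences over all 6160 pairs.

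The genes, lists, motifs and markers were chosen with earlier results of these data known. The naming rule took all 15 probe sets. From each list it took up to 4 called members by size of the mean difference, or else the 2 with the smallest p. It also took the 3 most alike probe sets of other genes for each member called over the mean. Other tested probe sets of a named gene of the lists are given beside it, except for Lpin2 and Agpat5. Alternatives were quantile normalization, median centring, pseudocounts of 1 and 64, no filter, array weights, the beta-actin ratio as a covariate, a replicate block, each array left out, each generation alone and 1 probe set per gene (that with the highest mean). The fit without the 4 F1 arrays was added after seeing the data.

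On data simulated for the F1 comparison with 21729 probe sets, the fit recovered 50.7% of 67 1.5-fold changes, 97% of 67 2-fold and 100% of 66 4-fold ones. It wrongly called 10 probe sets. The simulated noise was normal, independent and of equal spread in all groups. In the data, replicates of vinclozolin groups lay further apart, the RNA ratios differed by lineage and 5026 probe sets were called in F1. The simulation therefore does not measure the rate of wrong calls in the data.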

Additional observations from a re-analysis of the deposited data

Results flagged for a closer look

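The difference between lineages itself differed among F1, F2 and F3 for 3 fatty acid gene probe sets by the F test in limma: Scd2 1386889_at (adjusted p = 0.0142), Elovl5 1387630_at (adjusted p = 0.0108) and Elovl6 1394401_at (adjusted p = 0.0199). In all 3 both vinclozolin arrays of F1 and of F2 were below the control arrays of their generation, and the difference was closest to 0 in F3. Each of these calls was lost when 1 of several arrays was left out, as given above, with F3 control replicate 2 and F3 vinclozolin replicate 1 among them for all 3 (adjusted p = 0.101 and 0.0828 for Scd2, 0.101 and 0.0802 for Elovl5, 0.161 and 0.121 for Elovl6).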

How the results depend on the processing

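With the beta-actin ratio as a covariate, the fatty acid gene calls in F1, F2, over the mean, for dependence on generation and for pairs in F1, F2 and the mean all went to 0, as did those of all tested probe sets in F1, F2 and the mean. All tested probe sets then gave 7 calls in F3 and 1 for dependence on generation. The sign turned, without a call, for Scd2 1367668_a_at (F1, 1.13), Scd2 1386889_at (0.53 in F1, 0.75 in F2, 0.53 over the mean), Elovl5 1387630_at (0.73, 0.63 and 0.65) and Scd (mean, 0.17). It also turned for the pairs of Elovl5 (0.66, 0.42 and 0.48 in F1, F2 and the mean), Elovl6 (F1, −0.52), Scd2 1386889_at with 1388253_at (0.14, 0.55 and 0.14) and with 1398016_at (F2, 0.12). The ratio was lower on all vinclozolin arrays than on all control arrays. In F1 the SE went from 0.14 to 0.57 for Scd2 1367668_a_at and from 0.23 to 0.93 for Scd2 1386889_at. Lineage and ratio could thus not be told apart in this fit, and the cause was not tested. With 1 probe set per gene, the brightest, all calls were 2190, 1072, 294 and 3471 in F1, F2, F3 and the mean and 82 for dependence. Fatty acid gene calls, of 8 genes, were 3 in F1, 1 in F2, 3 over the mean and 0 for dependence. Fewer features were tested, and their number is not given here, so these calls have no share beside them. This choice left out Scd2 1386889_at, Acaca 1387538_at, Elovl5 1387630_at and Elovl6 1394401_at. In Fasn, Acaca, Elovl5 and Elovl6 the dimmer probe set, left out here, had the lower mean difference. Array weights gave 3319, 2712 and 942 calls in F1, F3 and for dependence, with 3 fatty acid probe sets and 2 pairs in F3. No filter gave 351 calls in F3 and 313 for dependence. A pseudocount of 64 gave 2 pairs in F3. Single generations gave 2294 and 4 calls in F1 (all, fatty acid genes) and 2262 and 3 in F3. Without the 4 F1 arrays, chosen after seeing the data, F3 gave 1786 and 2, F2 4419 and 6, and the mean, then of F2 and F3 only, 5388 and 8. Leaving out 1 array gave 2514 to 7183 calls in F1, 1083 to 4884 in F2, 65 to 2172 in F3, 5650 to 8854 over the mean and 64 to 3506 for dependence, where all 12 arrays gave 5026, 3118, 676, 7245 and 565. Fatty acid gene calls ran from 4 to 9 in F1, 3 to 7 in F2, 0 to 3 in F3, 7 to 10 over the mean and 0 to 5 for dependence. Called pairs ran from 5 to 8 in F1, 3 to 5 in F2, 0 to 1 in F3 and 5 to 6 over the mean.

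Replicate numbers shared across groups did not pair the samples: deviations correlated between −0.0932 and 0.0678 over 15 pairs of groups, with 0 above 0.1. The replicate block gave 5009, 3117, 713 and 7189 calls in F1, F2, F3 and the mean, of which 7, 5, 0 and 9 were fatty acid gene probe sets. It ended the F2 call of Elovl6 1388108_at (adjusted p = 0.0541) and added the mean of Scd2 1367668_a_at (adjusted p = 0.0398), and it changed no other fatty acid gene call. Under the settings other than leaving out arrays, 738 of 890 values of single probe sets and pairs were classed as unchanged. A value called in either fit was so classed if it kept its direction and its call. A value called in neither was so classed if it shifted by less than its SE in the main fit. For dependence on generation the side of the threshold decided. Another 69 uncalled values shifted by at least that SE, 43 values lost their call, 24 gained one and 16 called values changed sign. With array weights, the replicate block, no filter or each generation alone, the fitted difference equals that of the main fit. An uncalled value could therefore not shift in those settings, so the count of unchanged values does not measure stability. With the actin ratio as a covariate, 0 of 41 called values were classed as unchanged.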
